A study of Mus musculus with 8 samples.

Results

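The genes described here code for RNA polymerase I and for proteins that process ribosomal RNA and assemble the ribosome. The 36 members were taken by symbol from a list of ribosome assembly factors, and all 36 were found among the 23284 gene rows and passed the filter on low counts that left 15106 genes for testing. RNA came from microdissected peripheral retina of mice at postnatal day 12, and each of the 8 libraries was oligo-dT selected. In all 8 libraries the tissue is called Rb null, from Pax6alpha-enhancer-Cre with the Rblox/lox allele, so that label is shared by both groups. The second group of 4 adds the MYCN overexpression alleles Rosa26LSL-RTTA and TRE-MYCN and is called TET-MYCN below. The design text names no Rblox allele for these animals, although their titles and genotype label call them Rb null, and whether doxycycline was given to induce the transgene is not stated there. Cre under this enhancer acts in peripheral retina and need not reach every cell of the dissected tissue. The comparison asks what added MYCN changes in retina that carries this label.

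Ribosomes are made in the nucleolus. RNA polymerase I copies the ribosomal DNA into a long precursor RNA, small nucleolar ribonucleoproteins modify it, and separate sets of factors fold and cut it into the small (40S) and large (60S) subunits. Genes of this pathway are widely described as targets of MYC proteins, which bind the E-box CACGTG as dimers with MAX. Growing and dividing cells make more ribosomes than resting cells.

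Because CACGTG is the site that MYC proteins prefer, it was searched in promoter windows from RefSeq (GRCm38.p6), which run from 250 bases before to 50 bases after an annotated start. A window was found for 30 of the 36 members. The motif reads the same on both strands and was present for 9 of these 30 members (30%), against 8.09% of 27025 genes with a window and 11.4% of the 10656 of them that were tested. The members with it were Rrn3, Mybbp1a, Pes1, Nle1, Wdr43, Utp20, Imp4, Pno1 and Tsr1. Sites follow for the 6 of these with the smallest p-values, in genomic windows of 300 bases, with CACGTG in capitals and up to 12 bases on each side.
Rrn3, chr16:13780449-13780748, plus strand, 215 bases before the start: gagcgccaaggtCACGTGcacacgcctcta
Rrn3, same window, 48 bases before the start: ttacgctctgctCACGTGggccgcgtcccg
Mybbp1a, chr11:72441077-72441376, plus strand, 40 bases after the start: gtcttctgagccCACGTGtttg
Nle1, chr11:82908346-82908645, minus strand, 23 bases after the start: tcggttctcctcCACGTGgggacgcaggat
Tsr1, chr11:74897830-74898129, plus strand, 24 bases after the start: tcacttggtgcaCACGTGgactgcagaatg
Wdr43, chr17:71615965-71616264, plus strand, 17 bases after the start: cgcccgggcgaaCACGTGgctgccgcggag
Utp20, chr10:88826765-88827064, minus strand, 37 bases after the start: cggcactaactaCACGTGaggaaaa

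Rrn3 was the member with a pair of these motifs, and the 250 bases before its start are given in full (plus strand of chr16:13780449-13780698), with both motifs in capitals. Gar1, the member with the smallest p-value, is shown beside it (minus strand of chr3:129831397-129831646) as a promoter without CACGTG.
Rrn3: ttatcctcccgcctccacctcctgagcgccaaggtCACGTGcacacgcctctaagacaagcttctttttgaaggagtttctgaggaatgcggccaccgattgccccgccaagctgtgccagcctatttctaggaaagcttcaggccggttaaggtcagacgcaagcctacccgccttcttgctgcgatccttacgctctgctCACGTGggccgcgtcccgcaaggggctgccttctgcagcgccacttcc
Gar1: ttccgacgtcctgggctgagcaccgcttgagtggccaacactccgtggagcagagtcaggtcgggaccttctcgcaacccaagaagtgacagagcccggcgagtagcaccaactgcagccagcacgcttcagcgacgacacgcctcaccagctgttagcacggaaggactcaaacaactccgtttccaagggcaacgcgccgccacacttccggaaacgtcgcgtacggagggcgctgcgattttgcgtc

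The related motif CACGCG, searched on both strands as CACGCG or CGCGTG, was present for 10 of the 30 members (33.3%), against 10.5% of all genes with a window and 19.4% of those tested. These 10 were Polr1c, Nhp2, Nolc1, Ddx21, Mybbp1a, Pes1, Nop16, Ppan, Nip7 and Bysl, and only Mybbp1a and Pes1 held both motifs.

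Gene counts per library ranged from 14872131 to 22873979, and each member had between 271 and 11165 reads in each library. Levels are given as CPM, a gene's reads scaled to a fixed number of reads per library, after TMM scaling, and a log2 fold change is positive where the TET-MYCN libraries were higher, with its standard error after ±. As a check of the labels, mouse Mycn lay between 108 and 339 CPM in the Rb-null and between 201 and 276 CPM in the TET-MYCN libraries, with a log2 fold change of 0.07 ± 0.28. Mycn therefore did not separate the groups, and direction rests on the labels. Rb1 stood at 123 to 184 CPM over the 8 libraries (means 161 and 154), and as both groups have the same Rb label its log2 fold change of -0.06 ± 0.14 checks nothing between them. Which part of the gene the floxed allele removes is not given in the labels, and reads outside it would still be counted. Whether reads of the TRE-MYCN transgene would be counted in the Mycn row is not stated. Rod, cone, bipolar, amacrine, ganglion and Müller glia markers were all detected.

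A pair of libraries held extreme values that touch the members' values. Rb-null 3 had the highest rod marker level (summed CPM of 10 genes 18411, against 2777 to 13902 elsewhere). It also had the lowest proliferation marker level (14 genes, 1872 against 2734 to 3945) and the highest lens marker level. Rb-null 4 was next to it, with 13902 CPM for rod and 2734 CPM for proliferation markers. Rb-null 1 and 2 had 9007 and 4006 CPM for rod markers and 3434 and 3767 CPM for proliferation markers. For lens markers Rb-null 2 was next, at 265 CPM. TET-MYCN 3 differed by transcript length. Over the 14929 tested genes with a known transcript length, the median log2 deviation from each gene's own mean was 0.286 for the 25% of genes with the shortest transcripts and -0.269 for the 25% with the longest in TET-MYCN 3, while the other 7 libraries lay between -0.095 and 0.086 and between -0.085 and 0.11. TET-MYCN 3 also had the largest share of reads aligned to several places, 12.8% against 9.05% to 11.7%.

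No member passed the threshold of an adjusted p of 0.05 over all genes (edgeR's quasi-likelihood test, Benjamini-Hochberg; adjusted p from 0.155 to 0.992), where 9 of 15106 genes (0.0596%) did. With the unadjusted p, 12 of 36 members were under 0.05 as higher and 0 as lower, against 8.06% of all genes as higher. That count was 5 (4.12% of all genes) without the lens-rich libraries Rb-null 2 and 3, 8 (5.22%) without Rb-null 3 alone and 19 (13.1%) without TET-MYCN 3. The fold change was above 0 for 32 of 36 members, and the members' log2 median was 0.24, against 52.2% and a median of 0.01 over all genes tested. In 7 members every TET-MYCN library lay above every Rb-null library, against 4.36% of all genes. DESeq2 called 3 members as higher, Gar1, Npm1 and Nhp2, with 2.14% of all genes called in that direction, and limma-voom called 0. These genes vary together across libraries, so the members' counts are a description and not a test of the list. Because the RNA is from mixed tissue, more cells of a kind and more RNA per cell cannot be told apart here. The 4 libraries of a group are not stated to come from separate animals, and p-values then measure the spread between libraries, which may be partly technical.

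By step, the median log2 fold change was 0.49 for the 3 box H/ACA proteins, 0.34 for 6 nucleolar proteins of early steps, 0.28 for 11 factors of 60S assembly, 0.22 for 4 polymerase I genes and 0.12 for 12 factors of 40S assembly. The unadjusted p was under 0.05 for 3 of 3, 4 of 6, 4 of 11, 0 of 4 and 1 of 12 members in that order, against 8.06% of all genes as higher. The counts for polymerase I and 40S assembly were thus near the share over all genes. Whether the steps differ from each other was not tested. Without Rb-null 3 the same medians were 0.46, 0.31, 0.21, 0.15 and 0.08, and without TET-MYCN 3 they were 0.47, 0.43, 0.26, 0.25 and 0.17. Without TET-MYCN 4 the polymerase I median was 0.14.

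**Figure D1:**
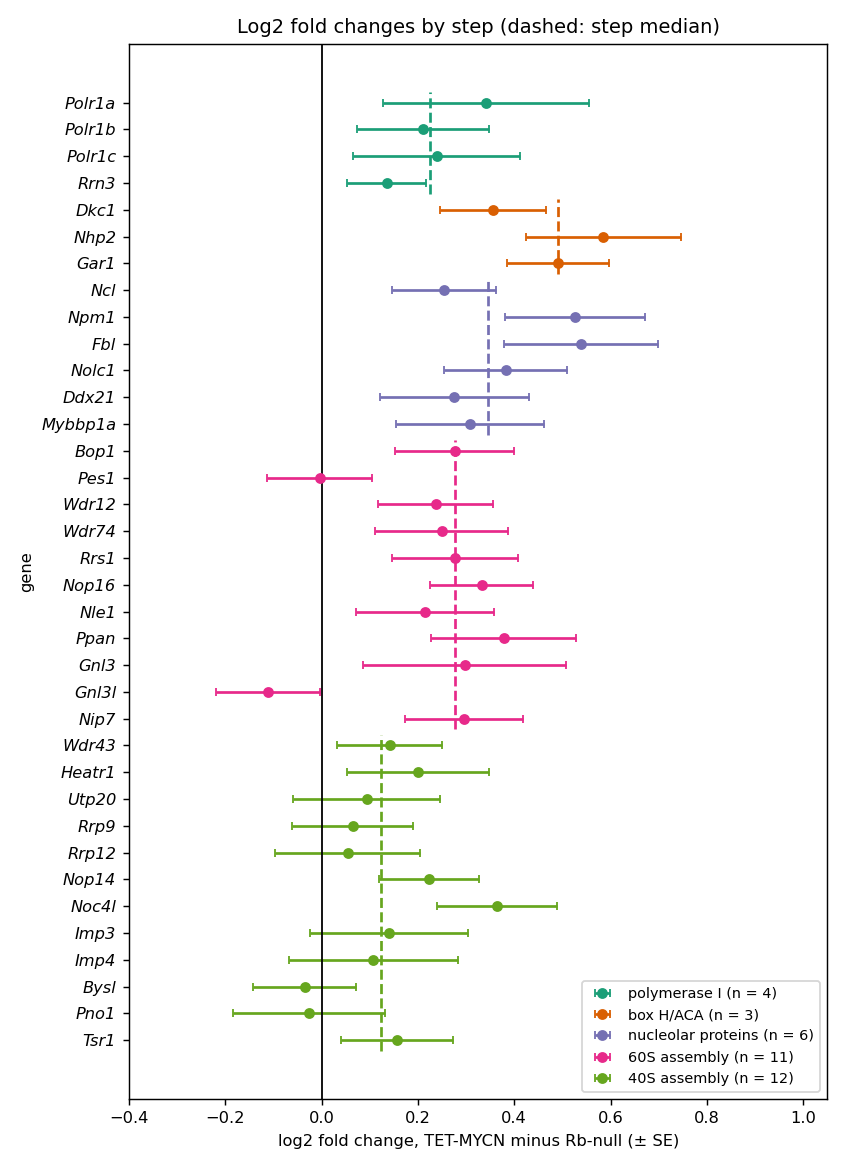
Log2 fold change of each of the 36 genes (x axis, TET-MYCN minus Rb-null, bars are standard errors) with genes on the y axis coloured by step and the median of each step dashed. Nhp2, Fbl, Npm1 and Gar1 lie furthest right, from 0.49 to 0.59, and Pes1, Gnl3l, Bysl and Pno1 are at or left of 0.

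Box H/ACA proteins form the core of the particles that turn uridines of ribosomal RNA into pseudouridine, and they also bind telomerase RNA. Gar1, a glycine- and arginine-rich core protein, gave 26.5, 27.6, 24.2 and 24.7 CPM across Rb-null 1 to 4, and 40.4, 32.97, 37.5 and 34.04 CPM across TET-MYCN 1 to 4. All members are listed in this order. The groups did not overlap, and the lowest TET-MYCN value was library 2. On the log2 scale the change was 0.49 ± 0.11 (adjusted p = 0.155, edgeR), the smallest p-value of the 36 genes, with rank 86 of 15106. DESeq2 gave an adjusted p of 0.00461.

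Nhp2, another core protein of these particles, had 24.5, 26.9, 19.9 and 26.2 CPM without, and 40.8, 26.4, 39.3 and 39.9 CPM with, the MYCN alleles. TET-MYCN 2 lay within the Rb-null range, and the other 3 TET-MYCN libraries lay close together above it. In log2 terms the groups differed by 0.59 ± 0.16 (adjusted p = 0.170, edgeR), the largest of the 36. Without TET-MYCN 2 it was 0.71 ± 0.13, and Nhp2 then passed (adjusted p = 0.0454, edgeR). That fit leaves out the lowest TET-MYCN value of Nhp2, which raises the difference by itself, and 132 of 15166 genes (0.87%) passed in it. DESeq2 on all 8 libraries gave an adjusted p of 0.0409.

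Dkc1, the pseudouridine synthase dyskerin, stood at 45.2, 47.1, 40.04 and 40.3 CPM without, and 62.0, 49.7, 50.1 and 59.3 CPM with, the MYCN alleles. The groups did not overlap, though TET-MYCN 2 and 3 were close to the highest Rb-null library. The fold change came to 0.36 ± 0.11 on the log2 scale (adjusted p = 0.200, edgeR). Nop10, the remaining core protein and not among the 36, was named for that role after its values were seen. It had 42.0 ± 4.78 and 53.5 ± 11.1 CPM (SD, n = 4 each) and a log2 fold change of 0.35 ± 0.15, and TET-MYCN 3 was its highest library at 67.8 CPM.

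**Figure D2:**
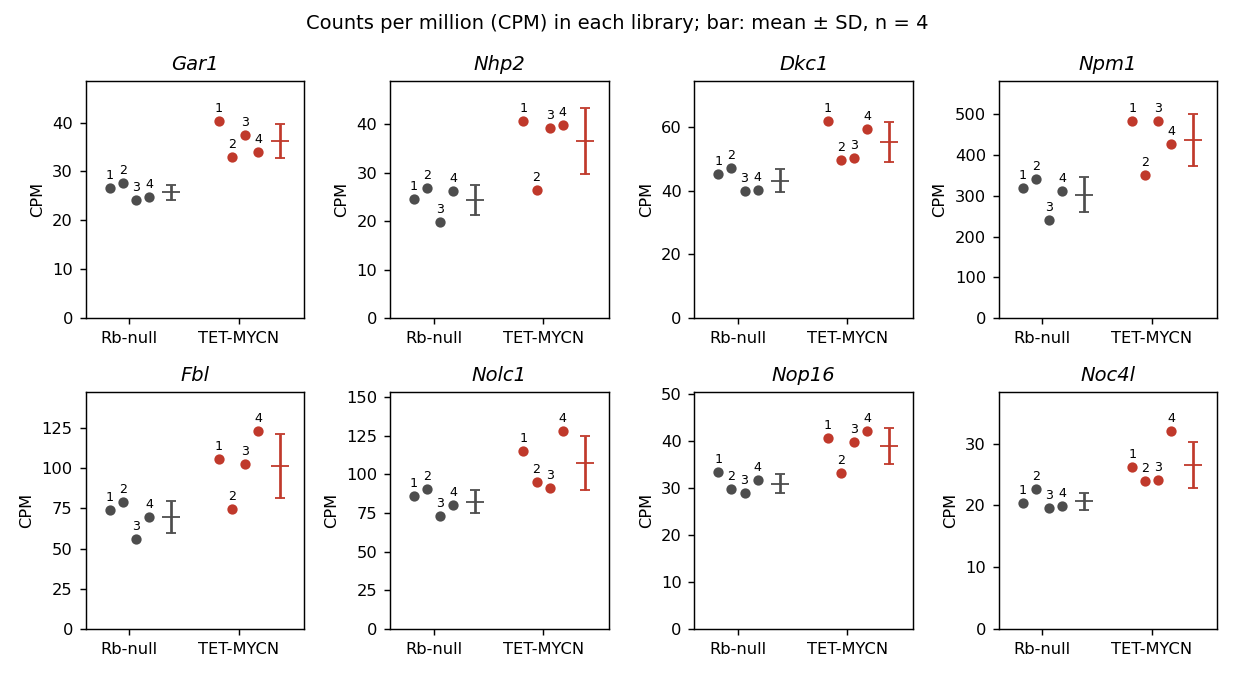
CPM (y axis from 0) of 8 genes in each library, numbered by replicate, with the mean and SD of 4 libraries beside the points. Gar1, Dkc1, Npm1, Nolc1 and Noc4l do not overlap between groups, and TET-MYCN 2 is the lowest or second-lowest TET-MYCN library in each panel.

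Among nucleolar proteins of early steps all 6 log2 fold changes were positive, from 0.25 to 0.54. Npm1, nucleophosmin, is an abundant nucleolar chaperone. It had 319.7, 341, 241 and 312 CPM without, and 485, 351, 485 and 427 CPM with, the MYCN alleles. The groups did not overlap by a narrow margin between Rb-null 2 and TET-MYCN 2. The fitted difference was 0.53 ± 0.15 (adjusted p = 0.170, edgeR; 0.0312, DESeq2). Npm1 has processed pseudogenes, so the share of its reads that was counted is uncertain.

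Fbl, fibrillarin, is the methyltransferase of box C/D particles, which add methyl groups to the sugars of ribosomal RNA. It stood at 73.8, 79.2, 56.1 and 69.9 CPM without, and 106, 74.6, 102 and 123 CPM with, the MYCN alleles. TET-MYCN 2 lay inside the Rb-null range and Rb-null 3 lay below all others. On the log2 scale the change was 0.54 ± 0.16 (adjusted p = 0.190, edgeR).

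Nolc1, a phosphoprotein that chaperones small nucleolar particles, had 86.1, 90.3, 72.9 and 80.01 CPM without, and 115, 95.2, 91.1 and 128 CPM with, the MYCN alleles. TET-MYCN 3 exceeded Rb-null 2 by under 1 CPM, so the groups were separate only just. In log2 terms the groups differed by 0.38 ± 0.13 (adjusted p = 0.221, edgeR). Ncl, nucleolin, which binds the ribosomal RNA precursor, stood at 482, 414, 453 and 426 CPM and at 588, 483, 494 and 554 CPM in the same order. TET-MYCN 2 and Rb-null 1 differed by under 1 CPM. The fold change came to 0.25 ± 0.11 on the log2 scale (adjusted p = 0.296, edgeR).

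Ddx21, an RNA helicase that links polymerase I transcription with processing, and Mybbp1a, a nucleolar MYB-binding protein, overlapped between groups. Ddx21 ranged from 76.4 to 107 CPM in Rb-null and from 82.6 to 123 CPM in TET-MYCN libraries. Mybbp1a ranged from 111 to 120.3 CPM in the Rb-null group, a narrow band, and had 159, 122, 110.5 and 184 CPM in the TET-MYCN group. TET-MYCN 3 was the lowest of all 8 libraries for Mybbp1a. The log2 fold changes were 0.28 ± 0.15 and 0.31 ± 0.15.

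In the polymerase I genes the TET-MYCN libraries were on both sides of the Rb-null libraries for Polr1a and Polr1b. Polr1a and Polr1b code for the pair of large subunits that form the catalytic centre. Polr1a had 34.1, 38.7, 36.9 and 30.1 CPM without, and 50.7, 40.8, 26.6 and 59.1 CPM with, the MYCN alleles. TET-MYCN 1, 2 and 4 lay above all Rb-null libraries and TET-MYCN 3 lay below all of them. The fitted difference was 0.34 ± 0.21 (adjusted p = 0.465, edgeR). Polr1b had the same order among the TET-MYCN libraries but not among the Rb-null libraries. It had 26.7, 26.7, 25.1 and 27.3 CPM against 34.4, 28.9, 23.5 and 35.5 CPM, and a log2 fold change of 0.21 ± 0.14.

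Polr1c, a subunit shared with RNA polymerase III, had another pattern. It stood at 58.0, 68.6, 39.6 and 57.2 CPM without, and 54.6, 59.5, 72.2 and 77.3 CPM with, the MYCN alleles, so that TET-MYCN 3 was among its high libraries and Rb-null 3 was the lowest. On the log2 scale the change was 0.24 ± 0.17. Rrn3, the initiation factor that brings polymerase I to the ribosomal promoter and the member with a pair of CACGTG motifs, was steady within groups. It had 96.1, 95.2, 86.9 and 92.1 CPM and 107, 98.1, 99.7 and 102 CPM, without overlap. Its log2 fold change was small, 0.13 ± 0.08 (adjusted p = 0.454, edgeR).

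In 60S assembly, 9 of 11 log2 fold changes were positive. Nop16, a factor of early 60S precursors, had 33.5, 29.8, 28.9 and 31.6 CPM without, and 40.7, 33.3, 39.9 and 42.1 CPM with, the MYCN alleles. TET-MYCN 2 again lay inside the Rb-null range, just under Rb-null 1. In log2 terms the groups differed by 0.33 ± 0.11 (adjusted p = 0.209, edgeR). Ppan, the counterpart of a yeast factor for 60S precursors, stood at 34.9, 39.5, 28.7 and 34.5 CPM and at 44.98, 35.96, 41.8 and 56.2 CPM. The fold change came to 0.38 ± 0.15 on the log2 scale (adjusted p = 0.276, edgeR), with TET-MYCN 2 below Rb-null 2.

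Bop1, Pes1 and Wdr12 form the PeBoW complex, which is needed to process the spacer before the large ribosomal RNA. Bop1 was nearly constant in the Rb-null group, at 44.4, 44.7, 45.6 and 43.8 CPM, and had 56.0, 45.3, 48.6 and 66.3 CPM in the TET-MYCN group. The fitted difference was 0.28 ± 0.12 (adjusted p = 0.314, edgeR). Wdr12 had 21.8, 20.8, 22.3 and 21.1 CPM and 28.8, 21.2, 24.2 and 27.2 CPM, with TET-MYCN 2 inside the Rb-null range and a log2 fold change of 0.24 ± 0.12. For Pes1 the values were 86.6, 81.1, 97.6 and 89.9 CPM and 90.3, 75.6, 87.4 and 101 CPM, and the log2 fold change was -0.0038 ± 0.11. TET-MYCN 2 was the lowest library for Pes1 and TET-MYCN 4 the highest, so the TET-MYCN group spanned the whole Rb-null group. A difference between these subunits was not tested.

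Nip7, which acts late in pre-60S processing, had 43.4, 44.5, 39.3 and 49.3 CPM without, and 51.0, 48.7, 65.8 and 51.2 CPM with, the MYCN alleles. TET-MYCN 3 was far above the others. On the log2 scale the change was 0.30 ± 0.12 (adjusted p = 0.286, edgeR). Gnl3, the GTPase nucleostemin of stem and progenitor cells, showed the lowest relative value of any member in Rb-null 3, at 25.4 CPM, against 45.6, 53.8 and 48.0 CPM in Rb-null 1, 2 and 4. In the TET-MYCN libraries it had 53.1, 47.6, 64.4 and 47.3 CPM (log2 fold change 0.30 ± 0.21). Its relative Gnl3l, a GTPase of the same family, had 163, 153, 166 and 151 CPM and 159, 160.0, 121 and 146 CPM. The log2 fold change of Gnl3l was -0.11 ± 0.11, the most negative of the 36, and TET-MYCN 3 was its lowest library. Rrs1, Wdr74 and Nle1, which act in loading the 5S particle and in later remodelling of 60S precursors, had log2 fold changes of 0.28 ± 0.13, 0.25 ± 0.14 and 0.21 ± 0.14, with overlapping groups.

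In 40S assembly 10 of 12 log2 fold changes were positive but most were small. Noc4l, the partner of Nop14 in early 40S precursors, had 20.5, 22.7, 19.6 and 19.9 CPM without, and 26.2, 24.0, 24.2 and 32.0 CPM with, the MYCN alleles. It was the only 40S factor here without overlap, with TET-MYCN 4 the highest library, and the groups differed by 0.36 ± 0.12 in log2 (adjusted p = 0.227, edgeR). Nop14 itself had 29.3, 28.6, 27.5 and 26.9 CPM and 34.7, 30.9, 29.2 and 36.3 CPM. TET-MYCN 3 lay just under Rb-null 1, and the log2 fold change was 0.22 ± 0.10 (adjusted p = 0.332, edgeR).

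Heatr1 and Wdr43 belong to the part of the small-subunit processome that joins the precursor during transcription. Heatr1 stood at 34.4, 34.6, 29.2 and 29.1 CPM without, and 41.5, 36.3, 27.0 and 41.4 CPM with, the MYCN alleles, where TET-MYCN 3 was the lowest of all 8. In log2 terms the groups differed by 0.20 ± 0.15. Tsr1, a factor of late cytoplasmic 40S precursors, had 33.7, 33.2, 31.0 and 30.1 CPM and 39.3, 36.2, 28.9 and 38.2 CPM, again with TET-MYCN 3 lowest (log2 fold change 0.16 ± 0.12). Wdr43 had a log2 fold change of 0.14 ± 0.11.

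The remaining 40S factors had log2 fold changes smaller in size than their standard errors. Imp3 and Imp4, proteins of the complex that pairs the U3 RNA with the precursor, had log2 fold changes of 0.14 ± 0.16 and 0.11 ± 0.18. They were highest in different libraries, Imp3 in TET-MYCN 3 at 43.5 CPM and Imp4 in TET-MYCN 4 at 31.5 CPM. Rrp9, a U3 particle protein, had 0.06 ± 0.13, Utp20 had 0.09 ± 0.15 and Rrp12, which takes part in export, had 0.05 ± 0.15. Bysl and Pno1, needed for the last cuts of the 40S precursor, had -0.03 ± 0.11 and -0.03 ± 0.16. For Pno1 the TET-MYCN libraries 3 and 4 held the extremes of all 8, at 39.1 and 23.2 CPM.

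**Figure D3:**
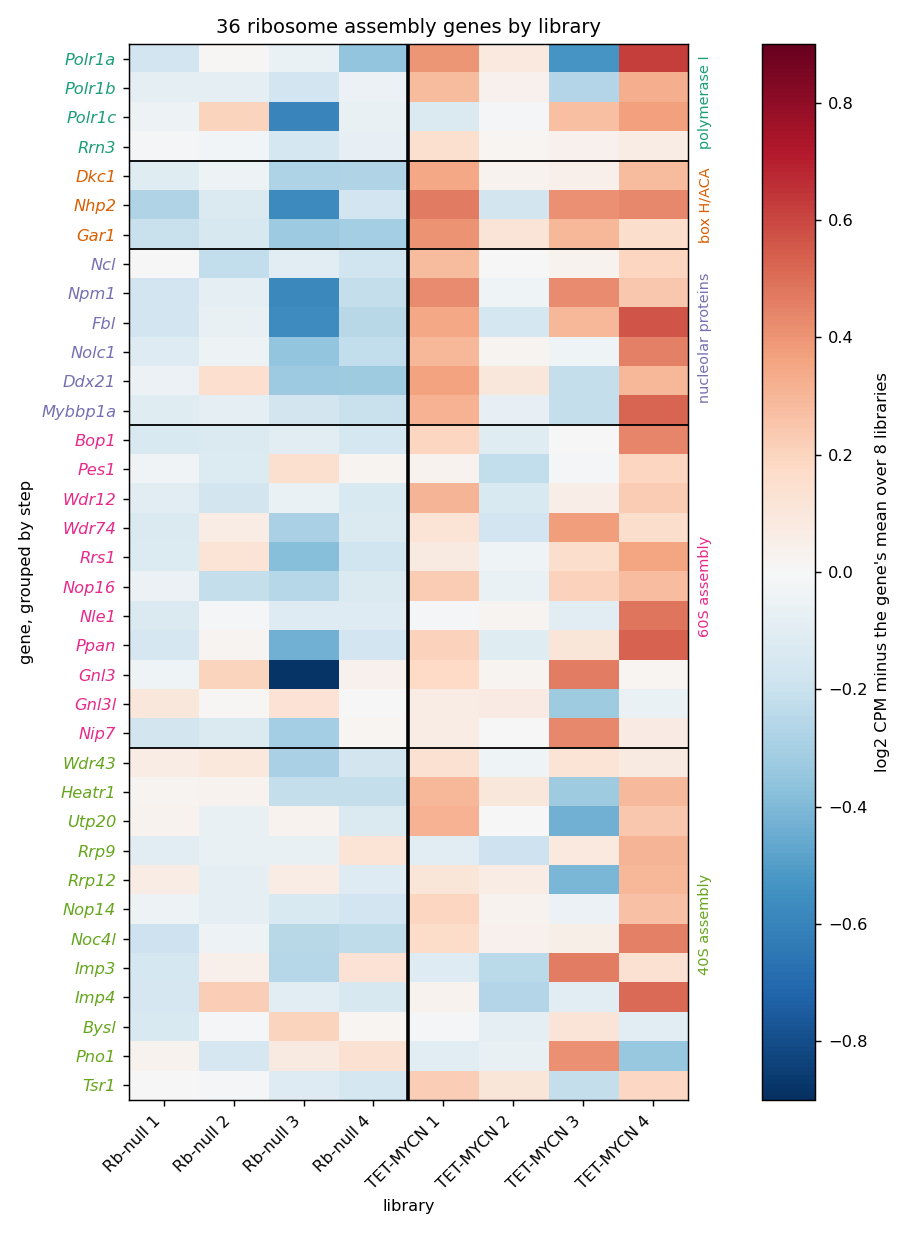
Log2 CPM of each gene minus its mean over 8 libraries (colour), with genes in rows by step and libraries in columns. Rb-null 3 is the lowest library for 18 of 36 genes, TET-MYCN 4 is the highest for 17 and TET-MYCN 1 for 12.

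Across libraries, the median log2 deviation of the 36 members from their own means was -0.10, -0.05, -0.19 and -0.15 in Rb-null 1 to 4 and 0.20, -0.0046, 0.05 and 0.28 in TET-MYCN 1 to 4. TET-MYCN 2 and 3 were thus close to Rb-null 2, and TET-MYCN 1 and 4 were well above it. For the box H/ACA genes the medians were -0.20, -0.13, -0.33 and -0.27 and then 0.41, 0.03, 0.30 and 0.28, with no overlap. This was not particular to box H/ACA. The medians of all 36 members did not overlap either. Nor did those of nucleolar proteins (highest Rb-null -0.0765, lowest TET-MYCN -0.0217) and of 40S assembly (-0.0237 and -0.0147), by narrow margins. In 60S assembly TET-MYCN 2 (-0.0575) lay inside the Rb-null range. The polymerase I medians were -0.06, -0.0080, -0.16 and -0.07 and then 0.21, 0.03, -0.11 and 0.35, with TET-MYCN 3 inside the Rb-null range.

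Cell-type and proliferation markers also differed between libraries. All 14 proliferation markers were on the positive side, at a median of 0.35 and 0 past the threshold, and their summed level was 1872 to 3767 CPM without and 2998 to 3945 CPM with the MYCN alleles. Their median deviation was lowest in Rb-null 3, at -0.87, where 18 members were also lowest, and was 0.05, 0.13 and -0.28 in Rb-null 1, 2 and 4. In TET-MYCN 1 to 4 it was 0.04, 0.08, 0.40 and 0.42. By median deviation TET-MYCN 1 was near Rb-null 1 and 2, and by summed level it was below them (2998 against 3434 and 3767 CPM). How proliferation relates to the members' values was not tested. Among 9 progenitor markers 7 were positive, with a median of 0.90, and among 10 rod markers 0 were, with a median of -1.24. Lens markers were lower with the MYCN alleles for 8 of 9 tested (median -3.44), at a summed 18.4 to 496 against 9.91 to 49.2 CPM. Of other retinal lists, 7 of 7 bipolar markers (median -1.16), 7 of 7 cone markers (-0.89), 6 of 7 Müller glia markers (-0.47) and 6 of 7 ganglion cell markers (-0.46) were negative. The Müller glia genes Glul, Aqp4, Kcnj10 and Slc1a3 were lower without overlap between groups. Their log2 fold changes were -1.26 ± 0.25, -1.08 ± 0.19, -0.97 ± 0.15 and -0.35 ± 0.15. Over all genes, 497 of 15106 were lower without overlap. Rlbp1 (-0.47 ± 0.23), Car14 (-0.21 ± 0.14) and Apoe (0.01 ± 0.20) overlapped between groups, and none of the 7 passed the threshold. Horizontal cell markers were positive for 4 of 5 (median 1.13), with deviations of 1.66, 0.44, -1.31 and 0.91 in TET-MYCN 1 to 4 and from -1.10 to -0.04 in the Rb-null libraries. They were thus highest in TET-MYCN 1 and 4, where 12 and 17 members had their highest value, and a link between the 2 was not tested. Onecut1, Onecut2 and Lhx1 had log2 fold changes of 1.39 ± 0.68, 1.51 ± 0.46 and 1.13 ± 0.50, Prox1 had 0.01 ± 0.32 and Calb1 -0.15 ± 0.22. All 5 horizontal cell markers overlapped between groups. Amacrine markers had a median of 0.09, with 4 of 7 positive. None of these markers was at 0 in all libraries. Summed progenitor levels, unlike their median fold change, were not higher with MYCN, at 789.9 to 889.9 CPM without and 614 to 852 CPM with the MYCN alleles, and summed rod levels were 4006 to 18411 and 2777 to 6821 CPM. The part of cell composition in the members' differences was not tested.

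**Figure D4:**
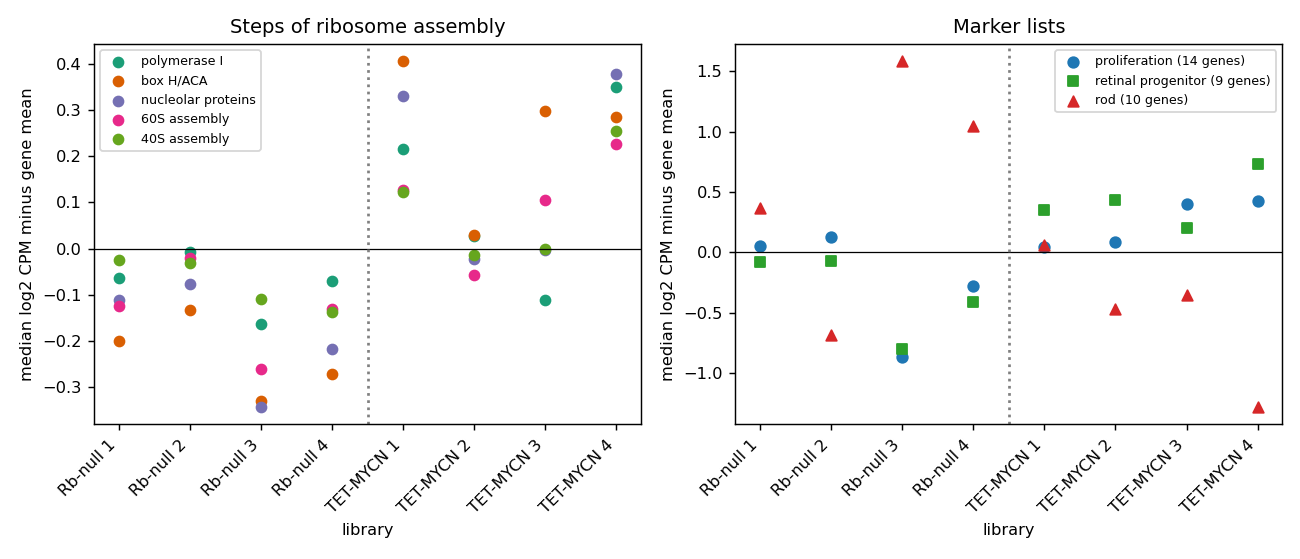
Median log2 CPM minus gene mean (y axis) in each library (x axis) for the 5 steps at left and for 3 marker lists at right, with a dotted line between Rb-null and TET-MYCN libraries. Rb-null 3 is low for all steps and for proliferation markers at -0.87, and box H/ACA points are the ones most clearly apart between groups.

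Transcript length ordered the members within TET-MYCN 3. There the deviation of the 36 genes fell with the log of transcript length (Pearson's r = -0.80, Spearman's rho = -0.79, across genes of 1 library and therefore only a description), while r lay between -0.25 and 0.52 in the other libraries. The 12 members with the shortest transcripts had a median deviation of 0.299 in that library and the 12 with the longest -0.239. In TET-MYCN 4 the same medians were 0.295 and 0.296, and in TET-MYCN 1 they were 0.168 and 0.283. Of the 12 longest members, 7 had their lowest value of all libraries in TET-MYCN 3, namely Polr1a, Polr1b, Mybbp1a, Gnl3l, Heatr1, Utp20 and Rrp12. Imp3, Wdr74 and Pno1, which are among the 12 shortest, had their highest value there.

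With a smooth term for transcript length taken out in each library, a setting added after seeing the data, 0 members passed the threshold and 13 had an unadjusted p under 0.05 as higher, against 9.48% of all genes. The standard error of Polr1a went from 0.21 to 0.15 with a log2 fold change of 0.32, that of Utp20 from 0.15 to 0.09 with 0.08, and that of Heatr1 from 0.15 to 0.10 with 0.20. Gar1, Nhp2, Npm1 and Fbl, which have short transcripts, had 0.45 ± 0.11, 0.52 ± 0.15, 0.50 ± 0.13 and 0.49 ± 0.16. The step medians in that fit were 0.45 for box H/ACA, 0.35 for nucleolar proteins, 0.26 for 60S, 0.21 for polymerase I and 0.10 for 40S, in the same order as without it.

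**Figure D5:**
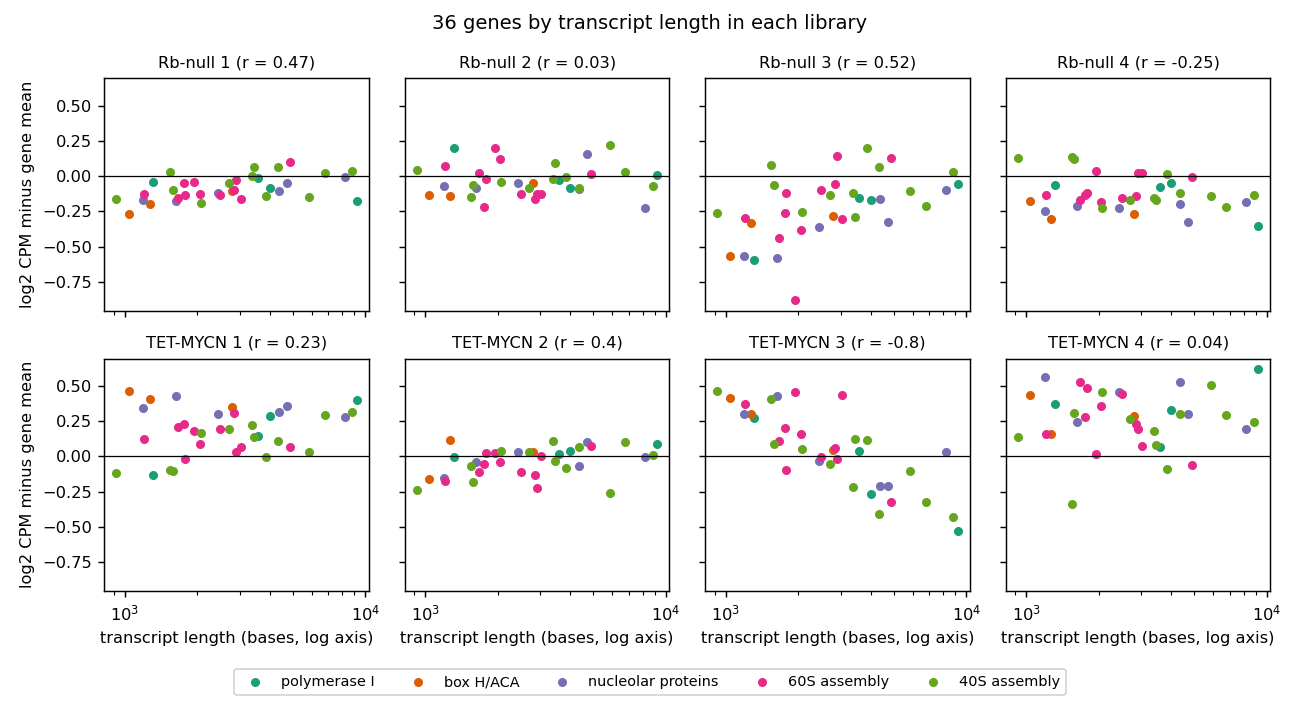
Log2 CPM minus gene mean (y axis) of the 36 genes against transcript length in bases (log x axis), 1 panel per library with Pearson's r, coloured by step. TET-MYCN 3 slopes down, with r = -0.8, and no other library has an r below -0.25.

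Further genes, in lists that do not hold the 36 members, mostly had the same sign. The lists hold other genes of the pathway, and also 8 polymerase II, 10 polymerase III and 5 shared subunits. The counts that follow first are over all of these lists. Of 138 tested, 0 passed the threshold as higher and 0 as lower (edgeR), 18 had an unadjusted p under 0.05 as higher and 0 as lower, and 125 were on the positive side, at a log2 median of 0.14. Over all genes tested 8.06% had such a p as higher, 52.2% were positive and the median was 0.01. DESeq2 called 1 of them, Utp14a, and limma-voom 0. In other proteins of box H/ACA and box C/D particles 4 of 10 had an unadjusted p under 0.05, among them Nop58, a core box C/D protein (0.34 ± 0.11), and Ruvbl2, an ATPase of particle assembly (0.32 ± 0.12). In 60S assembly it was 6 of 37, with Rrp15 at 0.42 ± 0.12 and Nsa2 at 0.34 ± 0.11, and in 40S assembly 4 of 45, near the share over all genes, with Utp14a at 0.40 ± 0.11 and Wdr46 at 0.56 ± 0.16. In the RNA exosome, which trims ribosomal RNA, it was 3 of 13, with Exosc1 at 0.34 ± 0.12 and Exosc3 at 0.26 ± 0.11.

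Mdn1, the giant ATPase that remodels 60S precursors, passed in 1 edgeR fit with a library left out and was named after its values were seen. It had 69.0, 75.8, 73.1 and 58.7 CPM without, and 103, 90.4, 46.0 and 109.6 CPM with, the MYCN alleles, so that TET-MYCN 3 alone lay below the Rb-null libraries. Its transcript is 17959 bases long. The fold change came to 0.34 ± 0.23 on the log2 scale with all libraries and 0.55 ± 0.11 without TET-MYCN 3 (adjusted p = 0.0499, edgeR). That fit leaves out the lowest value of Mdn1, which raises the difference by itself, and 230 of 15140 genes (1.52%) passed in it.

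Further polymerase I genes gave 0 of 10 with an unadjusted p under 0.05, a median log2 fold change of 0.10 and 8 positive, led by Polr1e at 0.28 ± 0.14 and Twistnb at 0.22 ± 0.12. Polymerase III subunits had the same median of 0.10, 7 of 10 positive, with Polr3gl at -0.16 ± 0.11. Polymerase II subunits also had 0.10, 6 of 8 positive, with Polr2a, its largest subunit, at -0.13 ± 0.10 and Polr2j at 0.18 ± 0.14. Of subunits shared by the polymerases 5 of 5 were positive, with Polr2f at 0.32 ± 0.13 and Polr2h at 0.26 ± 0.17. The polymerase I members' median of 0.22 was above those 3 lists, and this difference was not tested.

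Set beside the promoter motifs shown first, 0 of the 9 members with CACGTG had an unadjusted p under 0.05, and their median log2 fold change was 0.13, against 0.28 for the other members with a window. For CACGCG it was 5 of 10, with medians of 0.30 and 0.21. Such a p as higher was found for 8.06% of all genes and for 12 of the 36 members. The counts for both motifs rest on few genes, and no conclusion about CACGTG or CACGCG is drawn from them. Whether either motif goes with the fold changes was not tested. Of the 3 box H/ACA members, which had the highest median, Nhp2 held CACGCG and neither Gar1 nor Dkc1 held either motif in this window. A match or its absence describes these letters in 300 bases only.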

How the data were processed

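The authors deposited whole-number read counts per gene symbol, 1 table per library, not normalized. CASAVA 1.8.2, TopHat2 2.0.8b, HTSeq 0.5.4p3 and mouse build mm9 are named in the submitters' processing notes. Strand setting, options and annotation: not given in the sources used here. Rows that name no gene, 28.3% to 31.7% of each file, were left out of library sizes and tests.

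Counts were scaled by TMM, filtered with filterByExpr by group and tested over all 15106 genes with edgeR 4.0.16 (quasi-likelihood F test, robust, group as the only term, Benjamini-Hochberg at 0.05; R 4.3.3, limma 3.58.1). The standard error is the absolute log2 fold change over the square root of F. Deviations used log2 CPM with a prior count of 2. DESeq2 1.42.0 ran on the same filtered genes. The procedure was tested on simulated data with planted changes larger than those of the 36 members. That test does not show whether changes of the members' size would be found. Transcript lengths came from GENCODE (GRCm38), matched for 98.8% of genes tested and all 36 members. Promoter windows came from RefSeq by symbol. Their GRCm38.p6 positions are not those of the counted build. Libraries of 1 group all differed by more than sampling noise. Figures used Python 3.11.15 and matplotlib 3.10.9.

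The members, gene lists and settings were chosen with earlier results of these data known. Values were given in full for the 4 members with the smallest p-value in each step, and of each further list for the 2 genes with the smallest p-value. Of these, 1 gene is not reported here. Other settings were DESeq2's size factors, total counts, 2 filters on low counts, DESeq2, limma-voom, a replicate block and leaving out single libraries. Added after seeing the data were fits without 2 pairs of libraries and with a length term.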

Additional observations from a re-analysis of the deposited data

Results flagged for a closer look

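In groups of 4 libraries, 5 of 72 gene and group pairs had 1 library far from the other 3 (gap over range above 0.829), where chance gives about 3.6. TET-MYCN 2 had 26.4 CPM of Nhp2, where the other 3 of its group had 39.3 to 40.8 CPM. TET-MYCN 3 had 65.8 CPM of Nip7 (48.7 to 51.2 CPM in its group). In the Rb-null group, Nle1 was at 19.5 CPM in library 2 against 18.0 to 18.2 CPM, Imp4 at 25.9 CPM in library 2 against 19.96 to 20.6 CPM, and Rrp9 at 37.3 CPM in library 4 against 32.0 to 32.8 CPM.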

How the results depend on the processing

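The counts of genes called over all genes varied with the setting. They were 9 in the fit reported, 17 with no filter on low counts, 530 with DESeq2, 0 with limma-voom, 3 with the replicate block, 0 without the lens-rich libraries Rb-null 2 and 3, and 41 without Rb-null 1 and TET-MYCN 3. With 1 library left out they ranged from 0 to 230 (edgeR): 230 without TET-MYCN 3, 132 without TET-MYCN 2, 1 without Rb-null 1 and 0 without each of the other 5, where 5.22% to 8.94% of genes had an unadjusted p under 0.05 as higher (7.42% with limma-voom). Members called were 0 in the fit reported and 3 with DESeq2, and 0 to 1 with 1 library left out (Nhp2, without TET-MYCN 2). Genes called in the further lists were 0, with DESeq2 1 (Utp14a), and 0 to 1 with 1 library left out (Mdn1, without TET-MYCN 3). The median of the 36 members stayed positive in all these fits, from 0.17 without TET-MYCN 4 to 0.29 without TET-MYCN 2. Members with an unadjusted p under 0.05 as higher numbered 12 in the fit reported, 5 without Rb-null 2 and 3 (4.12% of all genes) and 19 without TET-MYCN 3 (13.1%). Replicate numbers did not pair the libraries (correlations of same-numbered deviations from -0.29 to -0.04, and 0 of 4 best with their own number). The replicate block gave 8 members with an unadjusted p under 0.05 as higher, against 6.18% of all genes.

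Values near 0 changed sign in single settings, and the cause was not tested. With total counts Pes1 was 0.0073, and with the length term 0.00069. Without Rb-null 2 and 3 Pes1 was 0.0051 and Bysl 0.046. Without Rb-null 1 and TET-MYCN 3 Imp3 was -0.059 and Polr2j -0.0092. With 1 library left out the ranges were -0.072 (TET-MYCN 4) to 0.059 (TET-MYCN 2) for Pes1, -0.0072 (TET-MYCN 1) to 0.226 (TET-MYCN 3) for Utp20, -0.037 (TET-MYCN 4) to 0.128 (TET-MYCN 2) for Rrp9, -0.045 (TET-MYCN 4) to 0.177 (TET-MYCN 3) for Rrp12, and -0.012 (TET-MYCN 3) to 0.229 (TET-MYCN 2) for Imp3. They were -0.073 (TET-MYCN 4) to 0.205 (Rb-null 2) for Imp4, -0.085 (Rb-null 1) to 0.029 (Rb-null 3) for Bysl, -0.191 (TET-MYCN 3) to 0.074 (TET-MYCN 4) for Pno1, -0.17 (Rb-null 3) to 0.313 (Rb-null 2) for Mycn and -0.143 (TET-MYCN 2) to 0.036 (TET-MYCN 4) for Rb1.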
